A study of Mus musculus with 8 samples.

Results

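A-kinase anchoring protein (AKAP) genes were examined in mpkCCD cells, a mouse line derived from microdissected cortical collecting ducts. The members were the 8 genes whose symbol in the deposited tables was Akap1, Akap7, Akap8, Akap9, Akap10, Akap11, Akap12 or Akap13, of 55414 genes in all. All 8 passed a filter of 10 or more counts in at least 4 libraries, as did 14772 genes of the whole table. RNA-seq was made from 4 libraries of cells given tolvaptan plus dDAVP and 4 libraries of cells given dDAVP alone. Tolvaptan is an antagonist of the vasopressin V2 receptor, and dDAVP is a V2-selective vasopressin analogue that both groups received. Per the study's methods, the cells were a re-cloned line of one clone, grown on permeable supports with dDAVP, and the control cells received the vehicle of tolvaptan. Dose and length of exposure are not in the labels, although the study's account of its RNA-seq results states both. Whether each library is a culture of its own is not stated. The p-values below therefore cover no more than the variation seen among these 8 libraries, technical variation included. The comparison asks which AKAP transcripts differ in abundance when a V2 receptor antagonist is added to cells that still receive the agonist dDAVP.

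An AKAP binds the regulatory subunits of protein kinase A (PKA) and, through a separate targeting domain, a membrane or organelle, so that the kinase is held close to particular substrates. Many AKAPs also hold phosphatases, phosphodiesterases, adenylyl cyclases or other kinases in the same complex. In collecting duct principal cells, vasopressin raises cAMP through the V2 receptor, and PKA anchored near aquaporin-2 vesicles takes part in the movement of that water channel to the apical membrane.

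Library totals ran from 41179670 to 49720488 expected counts in the tolvaptan plus dDAVP group and from 46189118 to 56203831 in the dDAVP alone group. Tolvaptan plus dDAVP replicate 1 had the lowest total and the lowest mean correlation with the other libraries (0.990, against 0.992 to 0.993 for the others). Summed counts of olfactory and vomeronasal receptor genes were higher in replicates 1 and 2 than in replicates 3 and 4 of both groups. In CPM (counts scaled to the library total) they were 42.6 and 40.6 against 15.9 and 20.4 with tolvaptan. With dDAVP alone they were 29.4 and 52.8 against 12.5 and 14.8. Of 10 principal cell markers, 9 exceeded 1 TPM (a level corrected for transcript length and scaled to one sum per library) in at least 1 library. Scnn1b did so only just, at most 1.05 TPM, with means of 0.87 with tolvaptan and 0.75 with dDAVP alone. Elf5 did not exceed 0.27 TPM. Aqp2, the vasopressin-regulated water channel, averaged 9439 TPM with tolvaptan and 8947 TPM with dDAVP alone, a difference that did not pass the test (log2 fold change 0.05, 95% interval -0.12 to 0.22, adjusted p = 0.857 by edgeR). Summed TPM of 5 intercalated cell markers was at most 0.13 with tolvaptan and 0.15 with dDAVP alone, and the sums of endothelial and stromal, immune, and loop and distal tubule markers were below 1 in every library. Summed TPM of 4 proximal tubule markers was 8.92 to 11.7 with tolvaptan and 8.59 to 10.1 with dDAVP alone. Nearly all of it was Lrp2, with means of 9.7 TPM with tolvaptan and 8.9 TPM with dDAVP alone. Slc34a1, Slc5a2 and Cubn did not exceed 0.22 TPM in any library.

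No AKAP transcript passed the test between groups. In the edgeR quasi-likelihood fit across all genes, 0 of 8 members had an adjusted p under 0.05, against 59 of 14772 genes (0.399%), of which 27 rose and 32 fell. By adjusted p, DESeq2 called 1 member, Akap12, and 337 of the same 14772 genes. By the same measure, limma on log2(TPM + 1) called 0 members and 22 of the 14772 genes. At an unadjusted p under 0.05, 1 of the 8 members was higher in edgeR, again Akap12, and 0 were lower, where 952 of 14772 genes (6.44%) were higher and 700 (4.74%) lower with tolvaptan. In bulk RNA, fewer cells with a transcript and less of it per cell cannot be told apart. The median log2 fold change of the 8 members was 0.06 and 7 of them lay above 0, whereas over all genes tested the median was -0.0048 and 48.3% lay above 0. Summed over the 8 members, TPM was 841 ± 83.3 with tolvaptan plus dDAVP and 744 ± 25.5 with dDAVP alone (SD, n = 4 each). Without Akap12 the sums were 334 ± 9.41 with tolvaptan and 334 ± 7.52 with dDAVP alone, so the higher summed level lay in Akap12. Equal sums do not show each remaining gene unchanged, as a lower mean TPM of Akap9 was offset by higher means of others.

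**Figure D1:**
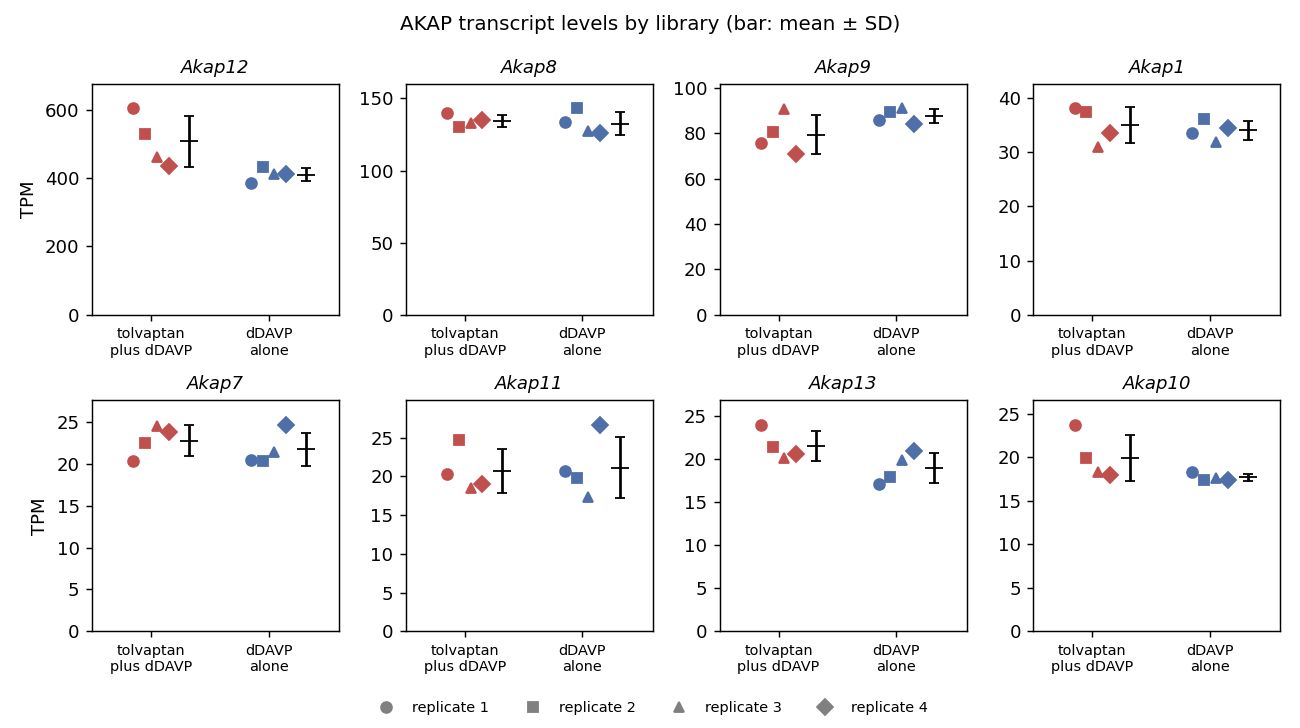
TPM (y axis, from 0) of the 8 AKAP transcripts in each library, with tolvaptan plus dDAVP on the left and dDAVP alone on the right of each panel; marker shapes stand for replicate numbers and bars for mean ± SD (n = 4). The 4 tolvaptan values of Akap12, 436 to 604 TPM, lie above its 4 dDAVP alone values, 386 to 433 TPM, and the groups overlap for each of the other 7 genes.

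Akap12 encodes gravin, a scaffold at the plasma membrane and cortical actin that binds PKA, protein kinase C and cell cycle regulators. Its level was 603.73, 529.27, 460.15 and 435.97 TPM in tolvaptan plus dDAVP replicates 1 to 4, against 385.75, 433.30, 410.70 and 410.52 TPM in dDAVP alone replicates 1 to 4. All 4 tolvaptan libraries were above all 4 dDAVP alone libraries, although tolvaptan replicate 4 lay only just above dDAVP alone replicate 2. Akap12 was the only member whose groups did not overlap, and 590 of 14772 genes (3.99%) were above every dDAVP alone library in every tolvaptan library on the log2 CPM scale. The fitted log2 fold change was 0.31 (SE 0.08, 95% interval 0.13 to 0.48), or 1.24-fold (1.09 to 1.40) with an adjusted p of 0.155 by edgeR. By unadjusted p it stood at position 238 of 14772 genes, and its absolute log2 fold change was above that of 89.7% of them.

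The size of the Akap12 difference moved with the libraries used. Tolvaptan replicates 1 and 2 had the highest levels, and the SD over the tolvaptan libraries was 75.5 TPM, against 19.4 TPM over the dDAVP alone libraries. Within replicates 1 and 2 the edgeR log2 fold change was 0.48 (adjusted p = 0.233), and within replicates 3 and 4 it was 0.12 (adjusted p = 0.555); whether these replicate sets differ in the effect was not tested. Replicates 1 and 2 are also the libraries with more olfactory and vomeronasal receptor counts in both groups, and the part of this in the Akap12 difference was not tested. Without tolvaptan replicate 1 the log2 fold change was 0.22 (adjusted p = 0.162), and with each library left out in turn it ran from 0.22 to 0.37 (adjusted p 0.120 to 0.387). Akap12 passed the threshold with DESeq2 (log2 fold change 0.31, adjusted p = 0.0343) and in edgeR with no count filter (0.29, adjusted p = 8.5e-05), and in none of the other 18 alternatives, over all of which the adjusted p ran to 0.555. Its sign was positive in 20 of 20 alternatives. These reuse the same 8 libraries or subsets of them, whose groups did not overlap, so the count is no separate support.

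Akap13 encodes a guanine nucleotide exchange factor for RhoA that also anchors PKA and protein kinase D. Its level was 23.91, 21.40, 20.05 and 20.54 TPM in tolvaptan plus dDAVP replicates 1 to 4, against 17.09, 17.92, 19.83 and 20.92 TPM in dDAVP alone replicates 1 to 4. The groups overlapped through dDAVP alone replicate 4, which was above tolvaptan replicates 3 and 4. The log2 fold change was 0.17 (SE 0.09, 95% interval -0.02 to 0.37, adjusted p = 0.500 by edgeR). It was 0.38 within replicates 1 and 2, -0.03 within replicates 3 and 4, and 0.08 without tolvaptan replicate 1.

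Akap10 encodes a dual-specificity anchor that binds both types of PKA regulatory subunit. Its level was 23.73, 19.95, 18.34 and 17.92 TPM in tolvaptan plus dDAVP replicates 1 to 4, against 18.34, 17.42, 17.65 and 17.37 TPM in dDAVP alone replicates 1 to 4. The dDAVP alone libraries lay close together, tolvaptan replicates 1 and 2 were above them, and tolvaptan replicate 4 was below dDAVP alone replicate 1. The log2 fold change was 0.13 (SE 0.07, 95% interval -0.03 to 0.28, adjusted p = 0.550 by edgeR), and 0.06 without tolvaptan replicate 1.

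**Figure D2:**
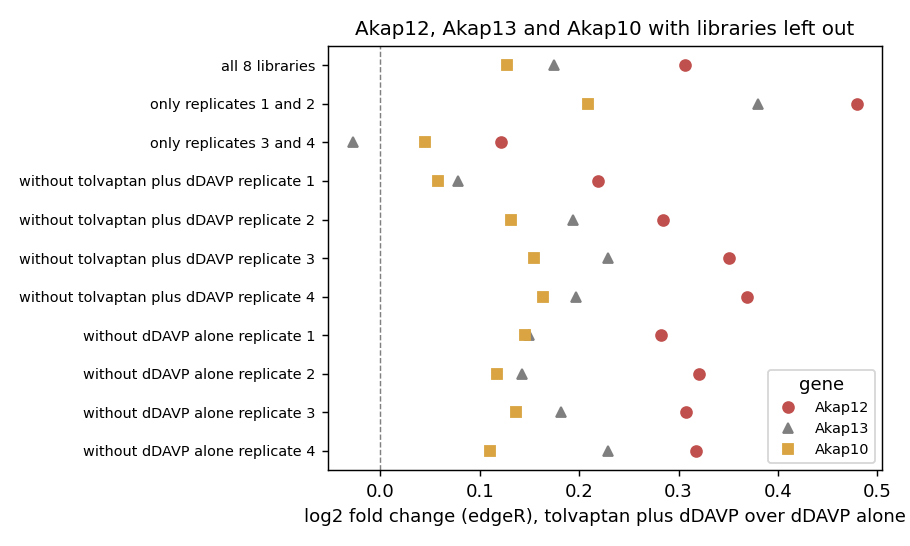
edgeR log2 fold change (x axis) of Akap12, Akap13 and Akap10 with all 8 libraries, within replicates 1 and 2, within replicates 3 and 4, and with each library left out (rows). Akap12 stays above 0 in every row, between 0.12 and 0.48, which follows from groups that do not overlap. Akap13 is at -0.03 within replicates 3 and 4.

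Anchors tied to aquaporin-2 vesicles differed by less than the spread between libraries. Akap7 encodes a small anchor, a long form of which was found on aquaporin-2 vesicles in rat kidney. Its level was 20.29, 22.45, 24.54 and 23.75 TPM in tolvaptan plus dDAVP replicates 1 to 4, against 20.47, 20.30, 21.46 and 24.63 TPM in dDAVP alone replicates 1 to 4. The highest value was a dDAVP alone library, and the log2 fold change was 0.08 (SE 0.07, 95% interval -0.08 to 0.25, adjusted p = 0.728 by edgeR). Akap11 encodes an anchor that also binds protein phosphatase 1 and glycogen synthase kinase 3 beta and that acts on aquaporin-2 location in mouse collecting duct. Its level was 20.31, 24.73, 18.48 and 19.04 TPM in tolvaptan plus dDAVP replicates 1 to 4, against 20.72, 19.76, 17.39 and 26.62 TPM in dDAVP alone replicates 1 to 4. The highest and the lowest value were both in dDAVP alone, and the log2 fold change was -0.02 (SE 0.11, 95% interval -0.26 to 0.22, adjusted p = 0.965 by edgeR). For Akap11 this interval still holds differences of the size fitted for Akap13.

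The starts of 7 of the 8 members were matched to RefSeq promoter windows (mouse assembly GRCm38.p6, 250 bases before to 50 after a start, 11 windows). Akap12 was not matched, so the counts of motifs leave it out. The core of the cAMP response element that CREB proteins bind, TGACG, was searched on both strands together with the palindrome TGACGTCA, which contains it, and the E-box CACGTG, which can overlap it. The TGACG core was in 1 of the 11 windows, at the upstream-most Akap11 start with 3 matches, and in 20.8% of all 32851 windows of this length. TGACGTCA was in 0 of the 11 and in 1.79% of all windows. CACGTG was in 3 of the 11, at an Akap11, an Akap10 and an Akap7 start, and in 7.15% of all windows. The 2 windows below are the one with all the TGACG matches and, for comparison, one that holds CACGTG alone. They are printed from the 5′ to the 3′ end of the minus strand, with capitals for the bases of a TGACG or CACGTG match on either strand. The Akap11 window is chr14:78536811-78537110 and the Akap10 window is chr11:61930208-61930507.
Akap11: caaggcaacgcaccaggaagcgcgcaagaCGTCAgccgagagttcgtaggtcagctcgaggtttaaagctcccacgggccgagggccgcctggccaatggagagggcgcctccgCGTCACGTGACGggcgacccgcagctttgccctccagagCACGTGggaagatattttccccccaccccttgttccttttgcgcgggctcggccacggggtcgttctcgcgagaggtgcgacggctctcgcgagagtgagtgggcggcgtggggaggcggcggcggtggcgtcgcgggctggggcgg
Akap10: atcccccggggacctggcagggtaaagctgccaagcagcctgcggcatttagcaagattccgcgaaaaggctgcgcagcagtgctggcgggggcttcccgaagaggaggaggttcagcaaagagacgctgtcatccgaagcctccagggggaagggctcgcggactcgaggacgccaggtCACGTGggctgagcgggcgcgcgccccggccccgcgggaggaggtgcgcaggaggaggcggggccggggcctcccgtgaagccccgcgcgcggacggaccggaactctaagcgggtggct
In the Akap11 window a CACGTG and the TGACG matches on each strand share bases in the longer run of capitals. A match is a description of these letters and not a binding site, and neither Akap11 (log2 fold change -0.02) nor Akap10 (0.13) passed the test.

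Akap1 encodes an anchor of the outer mitochondrial membrane. Its level was 38.11, 37.53, 31.05 and 33.54 TPM in tolvaptan plus dDAVP replicates 1 to 4, against 33.63, 36.16, 31.99 and 34.41 TPM in dDAVP alone replicates 1 to 4. Tolvaptan held both the 2 highest values and the lowest one, and the log2 fold change was 0.03 (SE 0.07, 95% interval -0.11 to 0.18, adjusted p = 0.906 by edgeR). Akap8 encodes a nuclear anchor bound to chromatin and the nuclear matrix. Its level was 140.16, 130.03, 132.85 and 134.68 TPM in tolvaptan plus dDAVP replicates 1 to 4, against 133.55, 143.04, 127.26 and 125.71 TPM in dDAVP alone replicates 1 to 4. The tolvaptan range lay inside the dDAVP alone range, and with a log2 fold change of 0.04 (SE 0.05, 95% interval -0.07 to 0.15, adjusted p = 0.83 by edgeR) Akap8 had the narrowest interval of the 8 members.

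Akap9 encodes a large scaffold of the centrosome and Golgi apparatus, where microtubules are nucleated. Its level was 75.73, 80.49, 90.92 and 70.89 TPM in tolvaptan plus dDAVP replicates 1 to 4, against 86.11, 89.36, 91.04 and 83.98 TPM in dDAVP alone replicates 1 to 4. Tolvaptan replicates 1, 2 and 4 were below all 4 dDAVP alone libraries and replicate 3 was not, and mean TPM was 79.5 ± 8.56 with tolvaptan and 87.6 ± 3.18 with dDAVP alone (SD, n = 4 each). On expected counts, which are not divided by length, the log2 fold change was 0.00 (SE 0.07, 95% interval -0.15 to 0.16, adjusted p = 0.991 by edgeR), while limma on log2(TPM + 1) gave -0.14 (adjusted p = 0.530). The lower TPM of Akap9 with tolvaptan was therefore not seen in its counts.

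**Figure D3:**
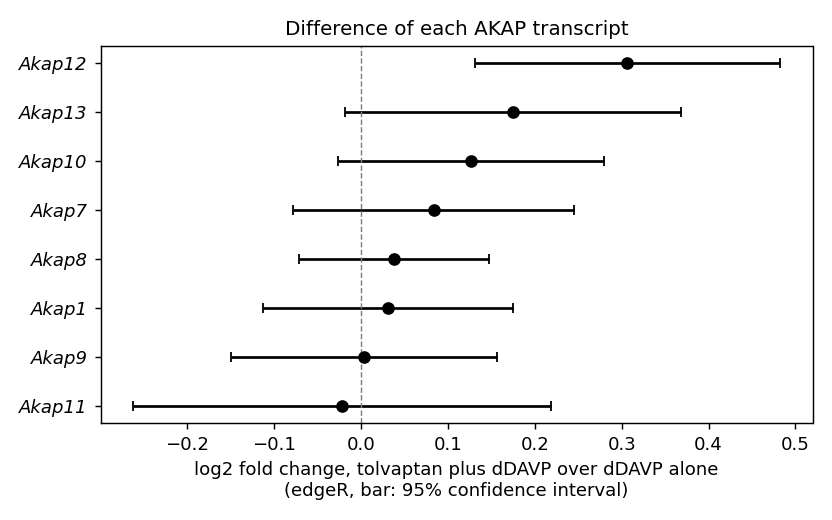
edgeR log2 fold change of each AKAP transcript (x axis, tolvaptan plus dDAVP over dDAVP alone) with its 95% confidence interval. The interval of Akap12, 0.13 to 0.48, lies above 0, and those of the other 7 genes span 0; no gene passed the adjusted threshold.

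In the deposited tables a count divided by its TPM gives, up to a factor per library, the effective length that RSEM assigned to a gene, which moves with the mix of transcripts it assigned reads to. This implied length was put on a scale of bases with 1049 genes that have a single annotated transcript of at least 2000 bases. For Akap12, Akap11, Akap1 and Akap10 it was 6362, 9591, 3754 and 3613 bases over all libraries, between 93.3% and 103% of the longest GENCODE M21 transcript. For Akap8 it was 63.9%, for Akap13 54.1%, for Akap7 34.2% and for Akap9 15.0% of the longest transcript, which has 4570 bases for Akap8, 12597 for Akap13, 2391 for Akap7 and 13123 for Akap9. Akap9 has 15 annotated transcripts, of which 4 are protein coding and 9 retain an intron. The TPM of Akap9 and Akap7 was thus computed for average lengths far below that of the longest transcript.

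Implied length did not pass the test for any member. In limma, 0 of 13525 genes (0%) had an adjusted p under 0.05 for a difference in implied length. At an unadjusted p under 0.05, 559 genes and 0 members were counted. For Akap9 the implied length was 2025, 2025, 2003 and 2263 bases in tolvaptan plus dDAVP replicates 1 to 4, against 1961, 1653, 1790 and 2063 bases in dDAVP alone replicates 1 to 4. The 3 lowest values were dDAVP alone replicates 1, 2 and 3, and the groups overlapped through dDAVP alone replicate 4. The log2 difference of 0.16 (SE 0.08, 95% interval -0.02 to 0.33, adjusted p = 0.943 by limma) had the lowest p of the 8 members (0.0707). The libraries do not mark strand, and 166 exonic bases of Akap9 lie opposite Cyp51, the sterol 14-demethylase of cholesterol synthesis. Cyp51 averaged 89.8 ± 7.67 TPM with tolvaptan and 81.2 ± 6.81 TPM with dDAVP alone (SD, n = 4 each; log2 fold change 0.21, adjusted p = 0.236 by edgeR), and its part in the Akap9 values was not tested. Akap7 has 47 exonic bases opposite Gm40617, which was at most 0.02 TPM with tolvaptan and 0.07 TPM with dDAVP alone.

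**Figure D4:**
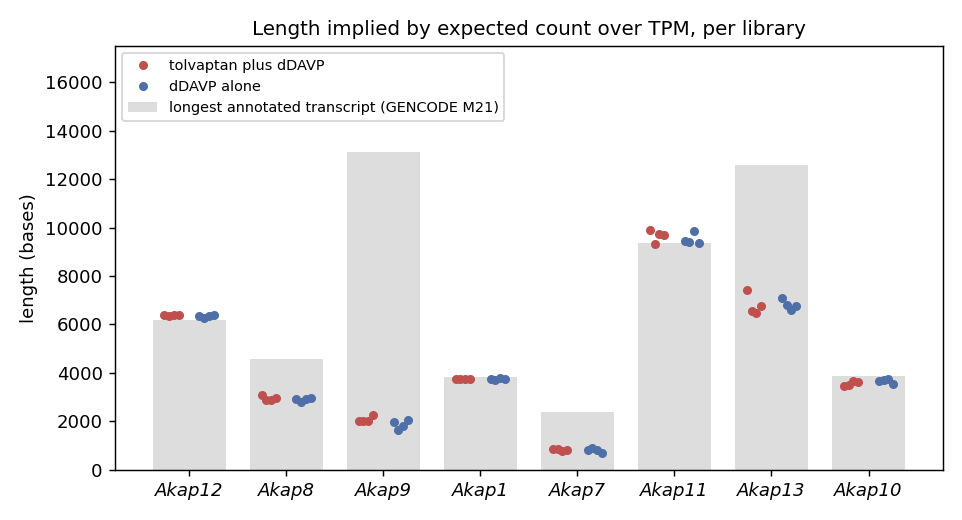
Length implied by expected count over TPM (y axis, bases) for each AKAP transcript; points are libraries, tolvaptan plus dDAVP left and dDAVP alone right, and grey bars the longest GENCODE M21 transcript. Akap12, Akap11, Akap1 and Akap10 lie near the top of their bars, and Akap9 lies near 2000 of 13123 bases.

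The levels of the 8 transcripts spanned 24.3-fold in TPM. Over all 8 libraries Akap12 averaged 459 TPM, position 328 of 55414 genes, followed by Akap8 at 133, Akap9 at 83.6, Akap1 at 34.6, Akap7 at 22.2, Akap11 at 20.9, Akap13 at 20.2 and Akap10 at 18.8 TPM. Each of the first 4 neighbouring pairs kept its order in 8 of 8 libraries (exact sign-flip permutation test, two-sided, p = 0.00781, the smallest it allows, adjusted p = 0.0137 over 7 pairs). The pairs were ordered by the mean over these same 8 libraries, both groups together, so no order set beforehand was tested. The last 3 pairs did not differ beyond their spread, with Akap7 over Akap11 in 4 of 8 libraries (exact permutation p = 0.219, adjusted 0.255), Akap11 over Akap13 in 4 of 8 (p = 0.617) and Akap13 over Akap10 in 7 of 8 (p = 0.0391, adjusted 0.0547). Akap12 made up 60.1 ± 2.96% of the summed TPM of the 8 genes with tolvaptan and 55.1 ± 0.860% with dDAVP alone (SD, n = 4 each). The place of Akap9 depended on the length used. In CPM per kilobase of the longest transcript Akap9 was at 6.95, below Akap12 (262), Akap8 (47.4), Akap1 (18.8), Akap11 (11.9) and Akap10 (9.75), and above Akap13 (6.08) and Akap7 (4.21).

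No other AKAP gene passed the test either. Of 32 further AKAP symbols, which gave 33 gene rows, 24 rows passed the count filter, 0 rose and 0 fell, and 16 of the 24 lay above 0 with a median log2 fold change of 0.05 (lowest adjusted p = 0.352 by edgeR). At an unadjusted p under 0.05 in edgeR, 4 of the 24 were higher and 0 lower with tolvaptan, beside 6.44% of all genes higher and 4.74% lower. By adjusted p, DESeq2 and limma called 0 of them. The most abundant were the membrane to actin linkers Ezr, with 585 TPM with tolvaptan and 605 TPM with dDAVP alone (log2 fold change -0.06), Msn, with 155 TPM with tolvaptan and 154 TPM with dDAVP alone (0.01), and Rdx, with 113 TPM with tolvaptan and 118 TPM with dDAVP alone (-0.07). Akap8l, a nuclear relative of Akap8, followed with 78.7 TPM with tolvaptan and 73.8 TPM with dDAVP alone (0.12, adjusted p = 0.443). Ezr was above Akap12 in mean TPM in both groups. Of the 33 rows, 21 exceeded 1 TPM in at least 1 library. Among the others, Akap3, Akap4, Akap5, Akap6 and Akap14 did not exceed 0.31 TPM in any library.

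Among genes of the kinase that these proteins anchor, no transcript passed the test. Of 9 PKA subunit and inhibitor genes, 8 were tested, 0 rose and 0 fell, and the median log2 fold change was -0.02 (lowest adjusted p = 0.471 by edgeR, with 0 genes at an unadjusted p under 0.05 and 0 called by DESeq2 or limma). Prkar1a, a type I regulatory subunit, averaged 375 TPM with tolvaptan and 382 TPM with dDAVP alone (log2 fold change -0.03). The catalytic subunit gene Prkaca averaged 141 TPM in both groups (-0.01), the inhibitor gene Pkig 136 TPM with tolvaptan and 138 TPM with dDAVP alone (-0.07), and the type II regulatory subunit gene Prkar2b 78.3 TPM with tolvaptan and 84.1 TPM with dDAVP alone (-0.07). Summed TPM of the 4 regulatory subunit genes was 482 ± 3.22 with tolvaptan and 494 ± 5.49 with dDAVP alone, against which Akap12 alone stood at 507 ± 75.5 with tolvaptan and 410 ± 19.4 with dDAVP alone (SD, n = 4 each).

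Of 27 genes for proteins that AKAPs are known to hold, 25 were tested, 0 rose and 0 fell, and 12 lay above 0 with a median log2 fold change of -0.01. The most abundant was the phosphatase catalytic subunit gene Ppp1ca, with 1807 TPM with tolvaptan and 1785 TPM with dDAVP alone (log2 fold change -0.01). The scaffold gene Iqgap1 followed with 191 TPM with tolvaptan and 186 TPM with dDAVP alone (0.03), the small GTPase gene Rhoa with 173 TPM with tolvaptan and 185 TPM with dDAVP alone (-0.10), and the phosphatase gene Ppp1cb with 142 TPM with tolvaptan and 159 TPM with dDAVP alone (-0.07). The lowest adjusted p was that of the adenylyl cyclase Adcy3 (0.282 by edgeR), at 0.913 TPM with tolvaptan and 0.618 TPM with dDAVP alone. At an unadjusted p under 0.05 in edgeR, 2 of the 25 partners were higher and 0 lower with tolvaptan, a share near that of all genes (6.44% higher, 4.74% lower). By adjusted p, DESeq2 and limma called 0 of them.

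**Figure D5:**
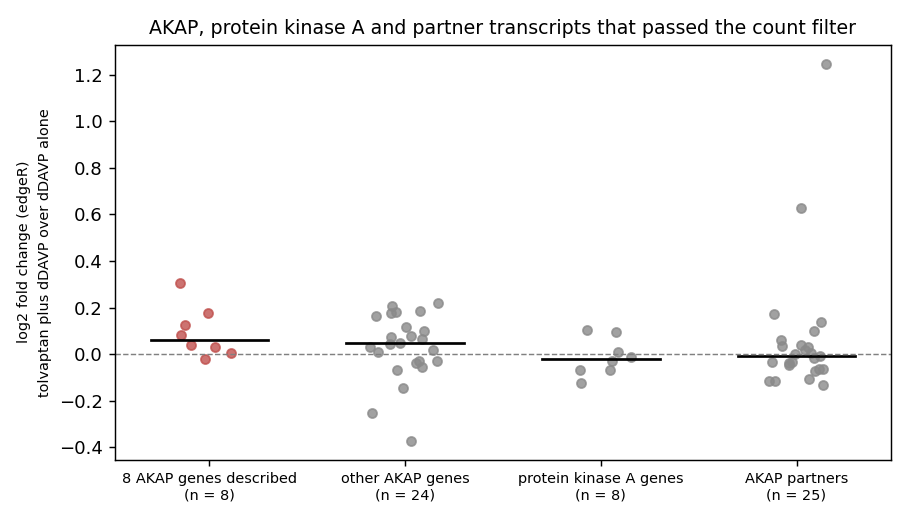
edgeR log2 fold change (y axis) of the 8 AKAP genes, 24 other AKAP gene rows, 8 PKA genes and 25 partner genes that passed the count filter; points are genes and lines medians. The medians are 0.06, 0.05, -0.02 and -0.01, and the 2 highest partner points are Adcy5 and Adcy3, which did not exceed 1.36 TPM in any library.

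Among 9313 genes with a maximum TPM above 10, the 5 whose log2 CPM profile over the 8 libraries lay closest to that of Akap12 were Il6st, Ptpn14, Fryl, Atp11a and Zfp445. Likeness was the mean absolute difference of centred log2 CPM, which was 0.0422 for Il6st, the signalling subunit of the interleukin 6 receptor family, and 0.0463 for Zfp445, a zinc finger protein, where Akap12 itself deviated from its mean by 0.160. Their log2 fold changes were 0.23 for Il6st, 0.24 for the tyrosine phosphatase Ptpn14, 0.33 for Fryl, 0.28 for the phospholipid flippase Atp11a and 0.31 for Zfp445, with adjusted p between 0.159 and 0.372 by edgeR. The 5 were picked for likeness over the same 8 libraries, so fold changes near that of Akap12 follow from the choice. None of the 5 passed the threshold.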

How the data were processed

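RNA-seq was made from 8 mpkCCD libraries, 4 per group, with groups and replicate numbers taken from sample titles. Per the labels, cDNA and libraries came from kits that do not mark strand. STAR and RSEM are the tools in the submitters' processing notes, and the study's methods give Ensembl release 106; versions of the tools are not given in the sources used here. The authors deposited expected counts per gene from RSEM without normalization. The authors also deposited TPM, which is scaled for length and to one sum per library. Deposited tables of the authors' own comparison and of term enrichment were not used.

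Expected counts were rounded and tested in edgeR 4.0.16 (R 4.3.3; TMM, quasi-likelihood, two-sided, Benjamini-Hochberg adjustment, threshold 0.05) over 14772 genes, those that reached 10 counts in 4 libraries or more. The study used DESeq2, here an alternative (1.42.0). Implied length was log2(expected count / TPM), centred on the median gene of each library, over 13525 genes with 10 or more counts in all 8 libraries, tested in limma 3.58.1 with a trend. Levels were ordered on log2(TPM + 1). Each level is a mean ± SD. Libraries of a group differed by a chi-square of 8.09 or more per degree of freedom, so none was counted as a duplicate. Scripts were tested on simulated counts. GENCODE M21, of build GRCm38 and not the authors' build, gave transcript lengths and overlaps, and no coordinates of the files are printed.

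The members and lists were chosen with earlier results of these data known. All 8 members were named, and up to 4 genes of each list, those of largest mean TPM. Adcy3, Adcy5, the anchors of low level and the cell marker Scnn1b were named after their values were seen. Alternatives were DESeq2, normalization by RLE or by the upper quartile, limma on log2 TPM with pseudocounts of 1 and 0.1, no filter, filterByExpr, the replicate block, replicates 1 and 2 against 3 and 4 as a term, each of these sets alone, and leaving out each library. The bias-adjusted edgeR fit and counts per kilobase were added after seeing the data.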

Additional observations from a re-analysis of the deposited data

Results flagged for a closer look

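The implied length of Akap8 in dDAVP alone replicate 2 was 2780 bases, where the nearest other library of that group was at 2933 bases, a gap of 0.950 of the group's range. The implied length of Akap9 in tolvaptan plus dDAVP replicate 4 was 2263 bases, where the nearest was at 2025 bases, a gap of 0.915 of the range. Both gaps are above Dixon's 95% critical value for 4 libraries. They were 2 of 32 groups of values examined (TPM and implied length of 8 genes in each group), and chance gives about 1 in 20.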

How the results depend on the processing

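The count of genes called depended on the method. Against 59 with edgeR, it was 337 with DESeq2 (199 rose), 256 with no filter, 22 with limma on log2(TPM + 1), 28 with a pseudocount of 0.1, 4 within replicates 1 and 2, 28 within replicates 3 and 4, and 20 to 82 with each library left out. The cause was not tested. Of the members, 1 was called with DESeq2 and 1 with no filter, Akap12 in both, at log2 fold changes of 0.31 and 0.29. The other 7 members passed in none of 20 alternatives. Their sign was that of the main value in 20 for Akap7, Akap8 and Akap10, 19 for Akap13, 17 for Akap1, 16 for Akap11 and 14 for Akap9. Neighbouring levels differed in 4 of 7 pairs, and in 4 to 5 with a library left out. With counts per kilobase of the longest transcript they differed in 6 pairs, and the order of the genes changed. The pairs were set by the mean over the same libraries that were then tested. No member differed in implied length in any of 10 alternatives.

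Whether the replicate numbers pair the libraries is not known. Same-numbered libraries deviated together with correlations of -0.01, 0.03, 0.16 and -0.01 for replicates 1 to 4. The highest correlations with another number were 0.06, 0.07, 0.03 and 0.07. With 4 libraries a group, these values cannot decide whether the libraries were paired. With the replicate block, 17 genes were called and Akap12 had a log2 fold change of 0.30 (adjusted p = 0.270 by edgeR), and not every library correlated best with its own number.

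With 4 libraries a group, the 95% intervals of the members' log2 fold changes together run from -0.26 to 0.48. These libraries do not set the values inside a member's interval apart from its fitted value. No sample lacked dDAVP, so an AKAP level without agonist was not analysed here. Transcript levels say nothing of AKAP protein or its location.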
